A study of Mus musculus with 34 samples.

Results

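Amino acid breakdown enzymes are the catabolic enzymes by which liver takes the nitrogen off amino acids and passes their carbon to the citric acid cycle, to glucose or to ketone bodies. The 39 members were named by gene symbol: the alanine and aspartate transaminases, the tyrosine, tryptophan, serine and glycine, methionine and cysteine, branched-chain and histidine branches, and enzymes of proline and glyoxylate. All 39 symbols stood once each in the deposited table of 78298 genes, and all 39 were among the 14980 genes that passed the filter on low counts and were tested.

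RNA of 34 mouse livers was sequenced to ask how loss of SIRT1, a protein deacetylase, from the intestine bears on liver regeneration after partial hepatectomy (PHx). The mice were males of the C57/Bl6 strain aged 8 to 12 weeks, and each library is 1 liver. Knockout mice, called SIRT1intKO, carried a Sirt1 allele whose exon 4 lies between loxP sites together with Cre under the intestinal Villin promoter, while the WT controls carried the floxed allele without Cre. PHx took out the left lateral and median lobes, and the livers came from untreated mice at 0 h or from operated mice at 6 h or 24 h.

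The groups held 6 WT livers at 0 h, 6 at 6 h and 4 at 24 h, and 6 SIRT1intKO livers at 0 h, 5 at 6 h and 7 at 24 h. The mice at 0 h were not sham-operated, and the names of their libraries run in a number series of their own, so surgery and library series cannot be told apart in the comparisons with 0 h. Comparisons of 24 h with 6 h, and of SIRT1intKO with WT, lie within 1 series. Total counts per library ran from 14892122 to 23480492 with a median of 16807340. By group the median was 16185229 in WT and 15138019 in SIRT1intKO at 0 h, 17181066 and 16979271 at 6 h, and 18118473 and 17695667 at 24 h. Levels are CPM, counts as a share of the library total after scaling for library composition, and they compare livers for 1 gene, not genes with each other.

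Most amino acids are broken down in hepatocytes, each along its own branch, and many of the genes respond to glucocorticoid, glucagon and feeding. Several branches open with an enzyme known for fast turnover and hormonal control, such as Tat for tyrosine and Tdo2 for tryptophan. The regenerating liver has to serve these functions while its remaining cells prepare to divide.

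Sirt1 itself was measured in liver, where the Cre is not active, so its level does not check the knockout. In WT livers Sirt1 was at 8.35 to 15.7 CPM (median 12.1) at 0 h, 8.85 to 14.05 (median 11.2) at 6 h and 8.80 to 23.1 (median 11.3) at 24 h. In SIRT1intKO livers it was at 9.48 to 16.3 (median 10.8), 7.55 to 15.6 (median 10.2) and 6.92 to 13.5 (median 7.87). The ranges overlapped at each time, and at 24 h the log2 fold change between genotypes was -0.65 (SE 0.22, adjusted p = 0.0726). The 8 hepatocyte markers, led by albumin, were detected in each group, with summed levels of 79595 to 90925 CPM in WT and 71875 to 97327 in SIRT1intKO at 0 h.

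Livers of 1 group stood apart from each other at 24 h. On the first principal component of all tested genes, which held 40.7% of the variance, WT 24 h replicates 1 and 2 lay at 86.2 and 95.9 and replicates 3 and 4 at -8.02 and -17.6. SIRT1intKO 24 h replicate 5 lay at 8.10 while the other SIRT1intKO 24 h livers lay from 49.7 to 80.3. For 30 of 39 members WT 24 h replicates 1 and 2 were both lower than replicates 3 and 4, and for 2 they were both higher. SIRT1intKO 24 h replicate 5 had the highest level of its group for 23 members and the lowest for 2. On that component WT replicates 1 and 2 thus lay beyond the SIRT1intKO 24 h livers and SIRT1intKO replicate 5 near WT replicates 3 and 4. Got1 and Gpt2 ran with the labels instead, with no overlap between the WT and SIRT1intKO 24 h livers. In the number order of the library names, WT 24 h replicates 3 and 4 and SIRT1intKO 24 h replicate 5 follow each other with no other library between them. WT 24 h replicate 2 comes directly before them, and the labels do not say what the numbers stand for. Why these livers lay apart was not tested, and it bears on the genotype values at 24 h. The counts at 24 h are therefore also given without WT 24 h replicates 1 and 2, without replicates 3 and 4, or without SIRT1intKO 24 h replicate 5, settings chosen after seeing the data.

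Markers of some other cells, but not of all, moved with the same livers. The 8 neutrophil markers, of which S100a9 was the most abundant, summed to 120.4, 101.3, 14.2 and 7.91 CPM in WT 24 h replicates 1 to 4, against 6.79 to 23.02 in WT at 0 h. In SIRT1intKO 24 h replicates 1 to 7 they summed to 96.1, 959, 211, 125, 23.4, 99.0 and 61.0, against 4.27 to 21.3 in SIRT1intKO at 0 h. Of the 7 neutrophil markers tested, 4 rose in WT and 7 in SIRT1intKO at 24 h against 0 h, and 1 was called higher in SIRT1intKO than in WT at 24 h. In WT 0 rose without replicates 1 and 2 and 6 without replicates 3 and 4, and between genotypes the numbers called higher were then 6 and 1 (with 1 lower in the latter fit), and 3 without SIRT1intKO replicate 5. Between genotypes at 24 h, 3 of 8 monocyte and macrophage markers were called higher too, with all 8 above 0 and a smallest adjusted p of 0.0095, as was 1 of 5 Kupffer cell markers. These numbers were 6 and 1 without WT 24 h replicates 1 and 2, without replicates 3 and 4 they were 1 and 1, and without SIRT1intKO 24 h replicate 5 they were 4 and 2. Of the 8 hepatocyte markers albumin alone passed the threshold there with all livers (log2 fold change 0.85, SE 0.23, adjusted p = 0.0278), at 0.68 with adjusted p = 0.113 without WT 24 h replicates 1 and 2 and 1.02 with adjusted p = 0.0198 without replicates 3 and 4. In these 2 fits 1 and 2 hepatocyte markers were higher past the threshold, and 2 were without SIRT1intKO 24 h replicate 5. With all livers no marker on the other lists passed the threshold, while 4 of 6 sinusoidal endothelial and 2 of 6 stellate cell markers were higher and 2 of 5 cholangiocyte markers lower in SIRT1intKO without WT replicates 3 and 4. Leaving out WT replicates 1 and 2 gave 1 cholangiocyte and 1 red blood cell marker higher and 1 red blood cell marker lower. The 5 cholangiocyte markers, most of whose signal was Spp1, summed to 482, 264, 64.5 and 78.8 in the WT 24 h livers, against 36.6 to 61.9 in WT at 0 h. They summed to 53.7 in SIRT1intKO 24 h replicate 5 and 103 to 334 in the others of its group, against 39.9 to 59.2 in SIRT1intKO at 0 h. No neutrophil or cholangiocyte marker was at 0 in every 24 h liver. In WT 24 h replicates 1 to 4 monocyte and macrophage markers summed to 81.2, 68.2, 56.2 and 48.1. Sinusoidal endothelial markers went the other way, at 48.5, 57.9, 103 and 82.6, as did stellate cell markers, at 109, 107, 167 and 173. Kupffer cell markers, at 93.3, 18.2, 93.8 and 71.5, followed neither pair. Summed hepatocyte markers were 45733, 41007, 47915 and 55899 in the WT 24 h livers and 49414 to 88616 (median 65003) in the SIRT1intKO 24 h livers. The part of these cells in the results at 24 h was not tested, and in whole liver fewer cells of a type and less RNA per cell cannot be told apart.

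**Figure D1:**
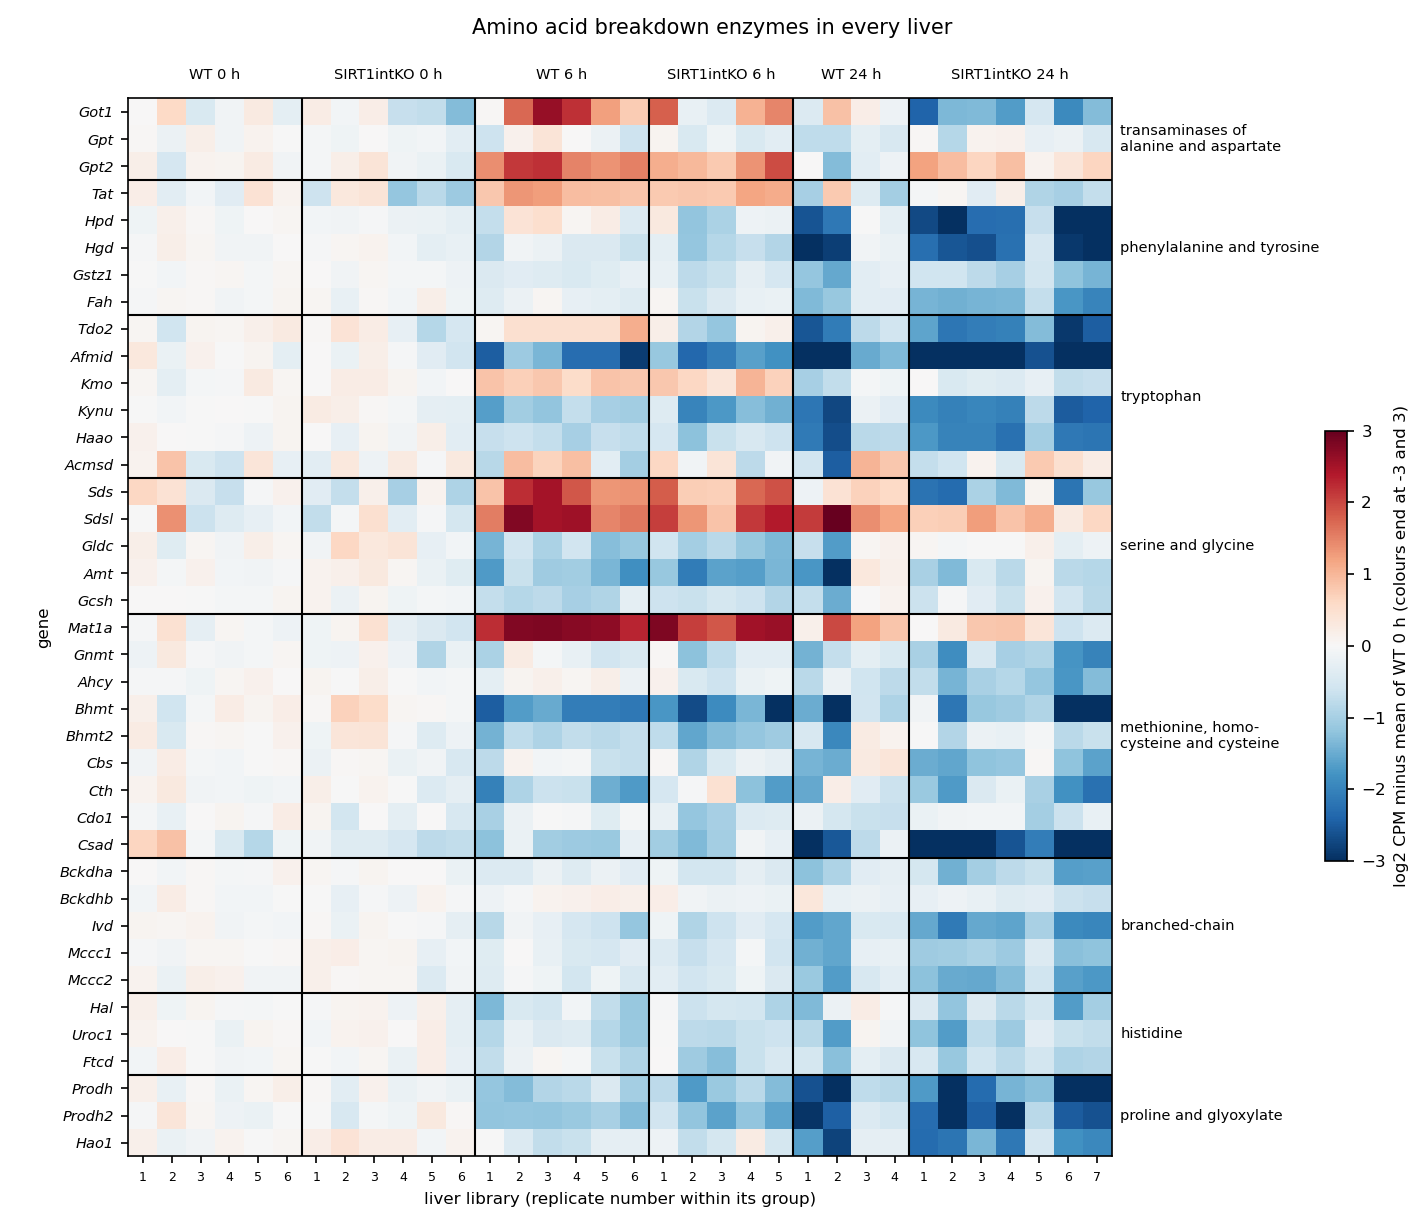
Level of each of the 39 members (rows, grouped by branch) in each of the 34 livers (columns, grouped by genotype and time), as the difference in log2 CPM from the mean of the WT 0 h livers. At 24 h the columns of WT replicates 1 and 2 are lower than those of replicates 3 and 4 in most rows. The column of SIRT1intKO replicate 5 is paler than the rest of its group for Hpd, Hgd, Fah, Afmid, Kynu, Haao, Prodh2 and Hao1, but not for Tat or Kmo.

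Over all branches, the members fell more often than they rose, and with all livers the count was highest in SIRT1intKO livers at 24 h. A gene fell or rose where the adjusted p of edgeR's quasi-likelihood test, corrected by Benjamini-Hochberg over all 14980 genes, was under 0.05, and it was called where the absolute log2 fold change was also over 1. At 6 h against 0 h in WT, 6 of 39 members (15.4%) were called lower and 5 (12.8%) higher, where 8.4% and 7.17% of all tested genes were. By adjusted p alone 14 members fell (35.9%, against 18.5% of all genes), while the 7 that rose (17.9%, against 18.9%) were near the share of all genes. In SIRT1intKO at 6 h, 8 members (20.5%, against 8.7%) were called lower and 6 (15.4%, against 7.86%) higher. There 14 fell (35.9%, against 17.6%) and 7 rose (17.9%, against 20.9%).

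At 24 h against 0 h in WT, 6 members (15.4%, against 7.4% of all genes) were called lower and 2 (5.13%, against 8.32%) higher. By adjusted p alone 18 fell (46.2%, against 14.6%) and 2 rose (5.13%, against 19.5%), and the median log2 fold change of the members was -0.57 where that of all genes was 0.02. Without WT 24 h replicates 1 and 2, 2 members fell, Haao and Ahcy (2.48% of 15619 genes tested), 0 were called lower (281 of all genes, where all livers gave 1108) and the median was -0.26, while 6 had an unadjusted p under 0.05 in edgeR. Without replicates 3 and 4, 28 fell (23.6% of 15619 genes tested), 25 were called lower (2588 of all genes) and the median was -1.19. In that fit 30 members fell and 20 were called lower in SIRT1intKO (1798 of all genes called lower). In SIRT1intKO at 24 h, 18 members (46.2%, against 11.1%) were called lower and 0 (against 11.9%) higher. There 28 fell (71.8%, against 24%) and 2, Gpt2 and Sdsl, rose (5.13%, against 26.2%), with a median of -0.99 against 0.04 for all genes. Without SIRT1intKO 24 h replicate 5, 30 fell (25.6% of 14939 genes tested), 23 were called lower (1823 of all genes, where all livers gave 1656) and the median was -1.11.

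From 6 h to 24 h in WT, 7 members (17.9%, against 2.72% of all genes) were called lower and 0 (against 4.44%) higher, and by adjusted p alone 8 fell (20.5%, against 6.43%) and 0 rose (against 10%). With WT 24 h replicates 1 and 2 left out, 4 members were called lower (328 of all genes) and 3 higher (401), and without replicates 3 and 4 it was 20 (1513) and 0 (1376), where all livers gave 408 and 665 genes. In SIRT1intKO over the same interval, 17 members (43.6%, against 3.91%) were called lower and 0 (against 6.7%) higher. By adjusted p alone 25 fell (64.1%, against 14.4%) and 3, Gldc, Amt and Bhmt2, rose (7.69%, against 13.2%). Read over both intervals, 13 members in SIRT1intKO (6.93% of all genes) and 2 in WT (2.66%) were not past the threshold at 6 h and then fell. A fall by 6 h with no later step past the threshold was found for 6 members in SIRT1intKO (12.7% of all genes) and 14 in WT (14.2%). The difference between genotypes in these paths was not tested, and from 6 h to 24 h in WT 24 members fell without replicates 3 and 4.

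Between genotypes at the same time, 0 members were called lower or higher at 0 h by edgeR, as were 0% of all genes, with 0 members at an unadjusted p under 0.05 and 0 called by DESeq2. The smallest unadjusted p at 0 h was that of Csad, 0.142. At 6 h again 0 members were called in either direction (0% of all genes), with 2 members, Tdo2 and Cth, at an unadjusted p under 0.05 and 0 called by DESeq2. At 24 h, 6 members (15.4%, against 1.3% of all genes) were called lower and 1 (2.56%, against 1.38%) higher in SIRT1intKO, and by adjusted p alone 10 were lower (25.6%, against 3.51%) and 1 higher (2.56%, against 2.3%). DESeq2 called 7. The member called higher is thus near the share of all genes.

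Without WT 24 h replicates 1 and 2, 15 members were called lower between genotypes at 24 h (639 of all genes) and 0 higher (801). Without replicates 3 and 4 it was 4 (600 genes) and 3 (696), and without SIRT1intKO 24 h replicate 5 it was 11 (424) and 1 (391), where all livers gave 195 and 207 genes. The median log2 fold change between genotypes was -0.52 with all livers, with 32 of 39 members below 0, and turned to 0.31 without WT 24 h replicates 3 and 4, with 14 below 0. Leaving out WT 24 h replicate 1 alone gave 10 called lower. With only the WT and SIRT1intKO 24 h livers in the fit, 0 members and 0 of all genes were called, and the lowest adjusted p of a member was 0.256. The log2 fold changes in that fit were -1.603 for Got1, 1.08 for Gpt2 and -1.63 for Sds, beside -1.604, 1.08 and -1.63 in the fit of all 6 groups. Whether the change from 0 h differed between genotypes was tested as an interaction: at 6 h 0 members were called in either direction (0% of all genes), with 0 at an unadjusted p under 0.05 and 0 by DESeq2. At 24 h 0 members were called lower (0% of all genes) and 0 higher (0.00668%), and 0 were called by DESeq2. In edgeR 13 of 39 members had an unadjusted p under 0.05 (1904 of 14980 genes). Without WT 24 h replicates 1 and 2 the interaction at 24 h had 10 members called lower (374 of all genes, with 448 higher). Without replicates 3 and 4 it had 1 member called higher (341 of all genes, with 309 lower), and its median went from -0.48 with all livers to -0.84 and 0.29. Without SIRT1intKO 24 h replicate 5 it had 1 called lower (112 of all genes) and 1 higher (93).

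**Figure D2:**
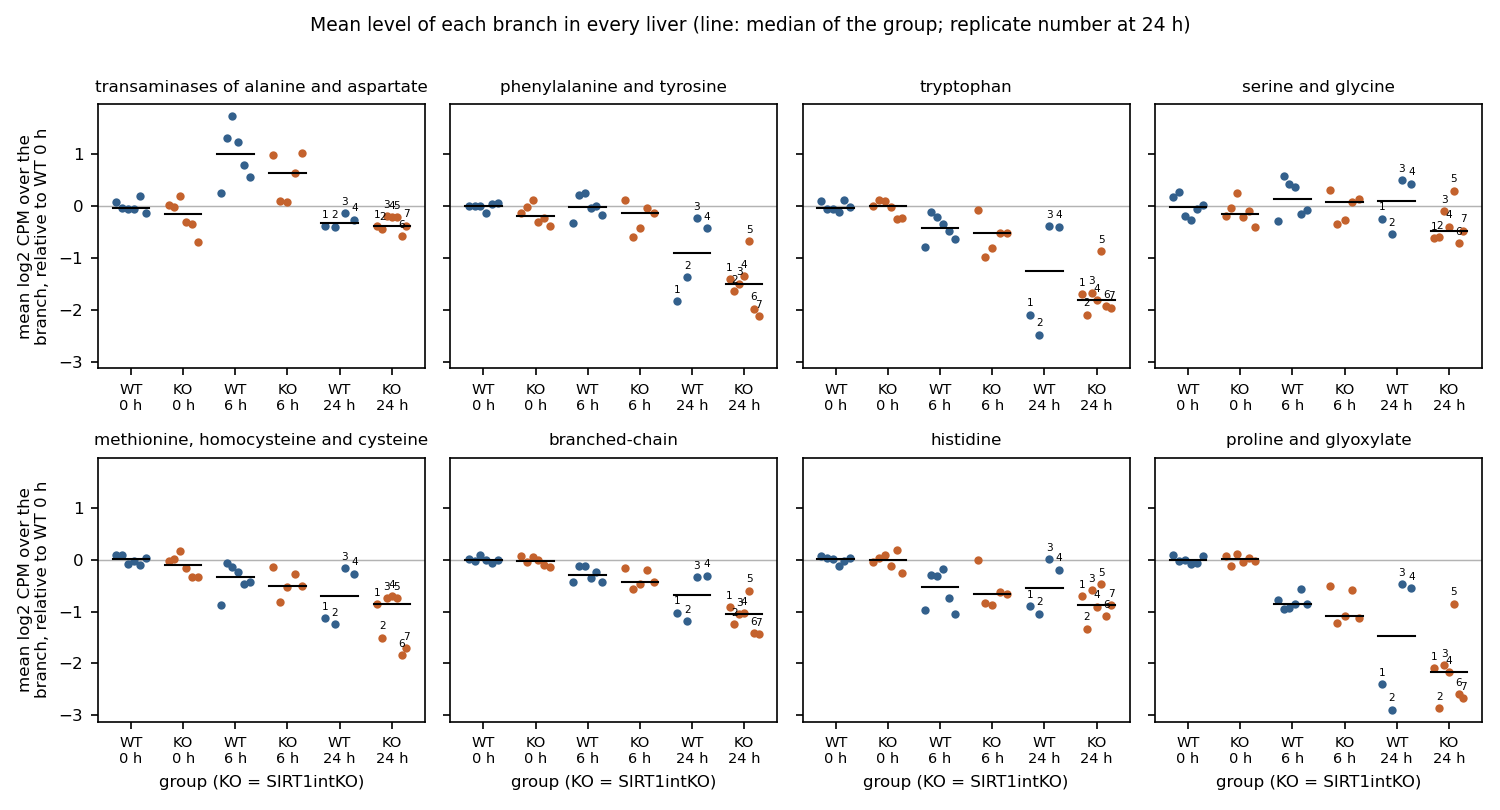
Mean level of the members of each branch in each liver (points), as the mean difference in log2 CPM from the WT 0 h livers, against genotype and time, with the group median as a bar. The WT 24 h points form an upper and a lower pair in the tyrosine, tryptophan, serine and glycine, methionine, branched-chain, histidine and proline and glyoxylate panels.

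Got1, the cytosolic aspartate aminotransferase, and Gpt2, the mitochondrial alanine aminotransferase, were called higher at 6 h in both genotypes. At 24 h they parted: in SIRT1intKO livers Got1 was called lower and Gpt2 rose against 0 h. In WT livers Got1 was at 236 to 490.0 CPM (median 316) at 0 h, 332 to 1996 (median 923) at 6 h and 245, 596, 374 and 293 at 24 h. In SIRT1intKO livers it was at 133 to 380.2 CPM (median 254) at 0 h, 1119.7, 279, 245, 667 and 899 at 6 h and 62.0 to 228 (median 127) at 24 h. All SIRT1intKO 24 h livers lay below all WT 24 h livers, while the 6 h and 0 h livers overlapped in each genotype.

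Got1 rose at 6 h by 3.08-fold in WT (log2 fold change 1.62, SE 0.39, adjusted p = 0.00135) and by 2.42-fold in SIRT1intKO (log2 fold change 1.28, SE 0.40, adjusted p = 0.0115, or 0.0680 without SIRT1intKO 6 h replicate 1). At 24 h it was not past the threshold against 0 h in WT (log2 fold change 0.17, SE 0.42, adjusted p = 0.784) and fell in SIRT1intKO (log2 fold change -1.09, SE 0.37, adjusted p = 0.0135). Against WT it was called lower in SIRT1intKO at 24 h (log2 fold change -1.60, SE 0.40, adjusted p = 0.0199, or 0.0760 without WT 24 h replicate 2). With WT 24 h replicates 1 and 2 left out, the log2 fold change was -1.43 with adjusted p = 0.0394, and without replicates 3 and 4 it was -1.79 with adjusted p = 0.0114.

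Gpt2 in WT livers was at 204 to 345 CPM (median 308) at 0 h, 733 to 1320.0 (median 824) at 6 h and 293, 117, 234 and 261 at 24 h. The SIRT1intKO livers had it at 212 to 379.5 CPM (median 273) at 0 h, 619.7, 573, 498, 733 and 1118 at 6 h and 312 to 666 (median 454) at 24 h. At 6 h all operated livers were above all 0 h livers of their genotype, and at 24 h all SIRT1intKO livers were above all WT livers. The rise at 6 h was 3.24-fold in WT (log2 fold change 1.70, SE 0.22, adjusted p = 6.05e-07) and 2.48-fold in SIRT1intKO (log2 fold change 1.31, SE 0.23, adjusted p = 4.28e-05). From 6 h to 24 h it fell in WT (log2 fold change -2.07, SE 0.26, adjusted p = 4.02e-06) and in SIRT1intKO (log2 fold change -0.57, SE 0.22, adjusted p = 0.0494, or 0.285 without SIRT1intKO 6 h replicate 5), where it was still above 0 h (log2 fold change 0.74, SE 0.21, adjusted p = 0.00442). Gpt2 was the 1 member called higher in SIRT1intKO than in WT at 24 h (log2 fold change 1.08, SE 0.25, adjusted p = 0.0132), with an interaction at 24 h of 1.12 (SE 0.32, adjusted p = 0.166), the smallest among the members. It was past the threshold without WT 24 h replicates 1 and 2 (0.94 with adjusted p = 0.0260), without replicates 3 and 4 (1.20 with adjusted p = 0.0122) and without SIRT1intKO 24 h replicate 5 (1.15 with adjusted p = 0.00273).

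Gpt, the cytosolic alanine aminotransferase and paralog of Gpt2, was in WT livers at 208 to 269 CPM (median 239) at 0 h, 153 to 312 (median 224) at 6 h and 139, 141, 194 and 171 at 24 h. Levels in SIRT1intKO livers were 190.2 to 238 CPM (median 221) at 0 h, 249, 171, 217, 172 and 189 at 6 h and 130.2 to 258 (median 210.2) at 24 h. It fell in WT at 24 h, where all livers were below the 0 h range (log2 fold change -0.56, SE 0.18, adjusted p = 0.0159, or 0.0748 without WT 24 h replicate 1; without WT 24 h replicates 1 and 2 -0.38 with adjusted p = 0.376), and passed no other test with all livers.

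Tyrosine breakdown opened with a rise at its first step and closed with a fall at the later steps. Tat, the tyrosine aminotransferase, was the 1 of 5 members of this branch that rose at 6 h in each genotype, and Hpd, Hgd, Gstz1 and Fah fell in SIRT1intKO at 24 h, of which 3 were called. In WT at 24 h, 2 of 5 fell, Gstz1 and Fah, and none of the 5 without WT 24 h replicates 1 and 2, against 4 called without replicates 3 and 4. Of all genes 18.9% rose at 6 h in WT and 20.9% in SIRT1intKO, and at 24 h 14.6% and 24% fell. In WT livers Tat was at 1691 to 2919 CPM (median 2170.5) at 0 h, 3767 to 5388 (median 4035) at 6 h and 1085, 3687, 1631 and 1054 at 24 h. Its SIRT1intKO levels were 959 to 2817 CPM (median 1312) at 0 h, 3680.2, 3765, 3714, 4917 and 4635 at 6 h and 1077 to 2426 (median 1692) at 24 h. All 6 h livers were above all 0 h livers in both genotypes, and at 24 h the ranges overlapped with 0 h again.

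The rise of Tat at 6 h was 1.99-fold in WT (log2 fold change 0.99, SE 0.28, adjusted p = 0.00643) and 2.46-fold in SIRT1intKO (log2 fold change 1.30, SE 0.30, adjusted p = 0.000878), and it fell again to 24 h in WT (-1.22, adjusted p = 0.00998, or 0.0666 without WT 24 h replicate 1) and SIRT1intKO (-1.28, adjusted p = 0.00128). Hpd, the hydroxyphenylpyruvate dioxygenase that follows, was in WT livers at 1611 to 1958 CPM (median 1799.8) at 0 h, 1087 to 2529 (median 1955) at 6 h and 292, 403, 1745 and 1448 at 24 h. Among SIRT1intKO livers it was at 1439.6 to 1736 CPM (median 1605) at 0 h, 2159.9, 775, 913, 1585 and 1561 at 6 h and 142 to 1105 (median 272) at 24 h. In WT at 24 h replicates 1 and 2 were far below the 0 h livers while replicates 3 and 4 were near them, and in SIRT1intKO all 24 h livers were below all 0 h livers.

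Hpd fell by 4.25-fold in SIRT1intKO at 24 h (log2 fold change -2.09, SE 0.38, adjusted p = 4.72e-05), and in WT the difference was not past the threshold (log2 fold change -0.87, SE 0.45, adjusted p = 0.130). Against WT it was called lower in SIRT1intKO at 24 h (log2 fold change -1.37, SE 0.41, adjusted p = 0.0439, or 0.186 without WT 24 h replicate 3). That difference was -2.09 with adjusted p = 0.00143 without WT 24 h replicates 1 and 2 and 0.09 with adjusted p = 0.917 without replicates 3 and 4, so its direction turned with the livers kept. Hgd, the homogentisate dioxygenase, was at 67.2, 82.1, 536 and 501 CPM in WT 24 h replicates 1 to 4 and 65.3 to 411 (median 97.3) in SIRT1intKO at 24 h, against 538 to 650.1 (median 577) in WT at 0 h. Gstz1, the maleylacetoacetate isomerase, fell at 24 h in WT (-0.72, adjusted p = 0.00319) and SIRT1intKO (-0.79, adjusted p = 9.82e-05).

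Hgd and Fah were singled out by the study on these same livers, so that their directions are not independent evidence. Fah, the fumarylacetoacetate hydrolase of the last step, fell in WT at 24 h (-0.71, adjusted p = 0.00508) and was called lower in SIRT1intKO (-1.36, adjusted p = 9.64e-08). At 24 h it was lower in SIRT1intKO than in WT (-0.69, adjusted p = 0.0226, or 0.0913 without WT 24 h replicate 4), at -1.07 with adjusted p = 0.000594 without WT 24 h replicates 1 and 2 and at -0.20 with adjusted p = 0.516 without replicates 3 and 4. 

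**Figure D3:**
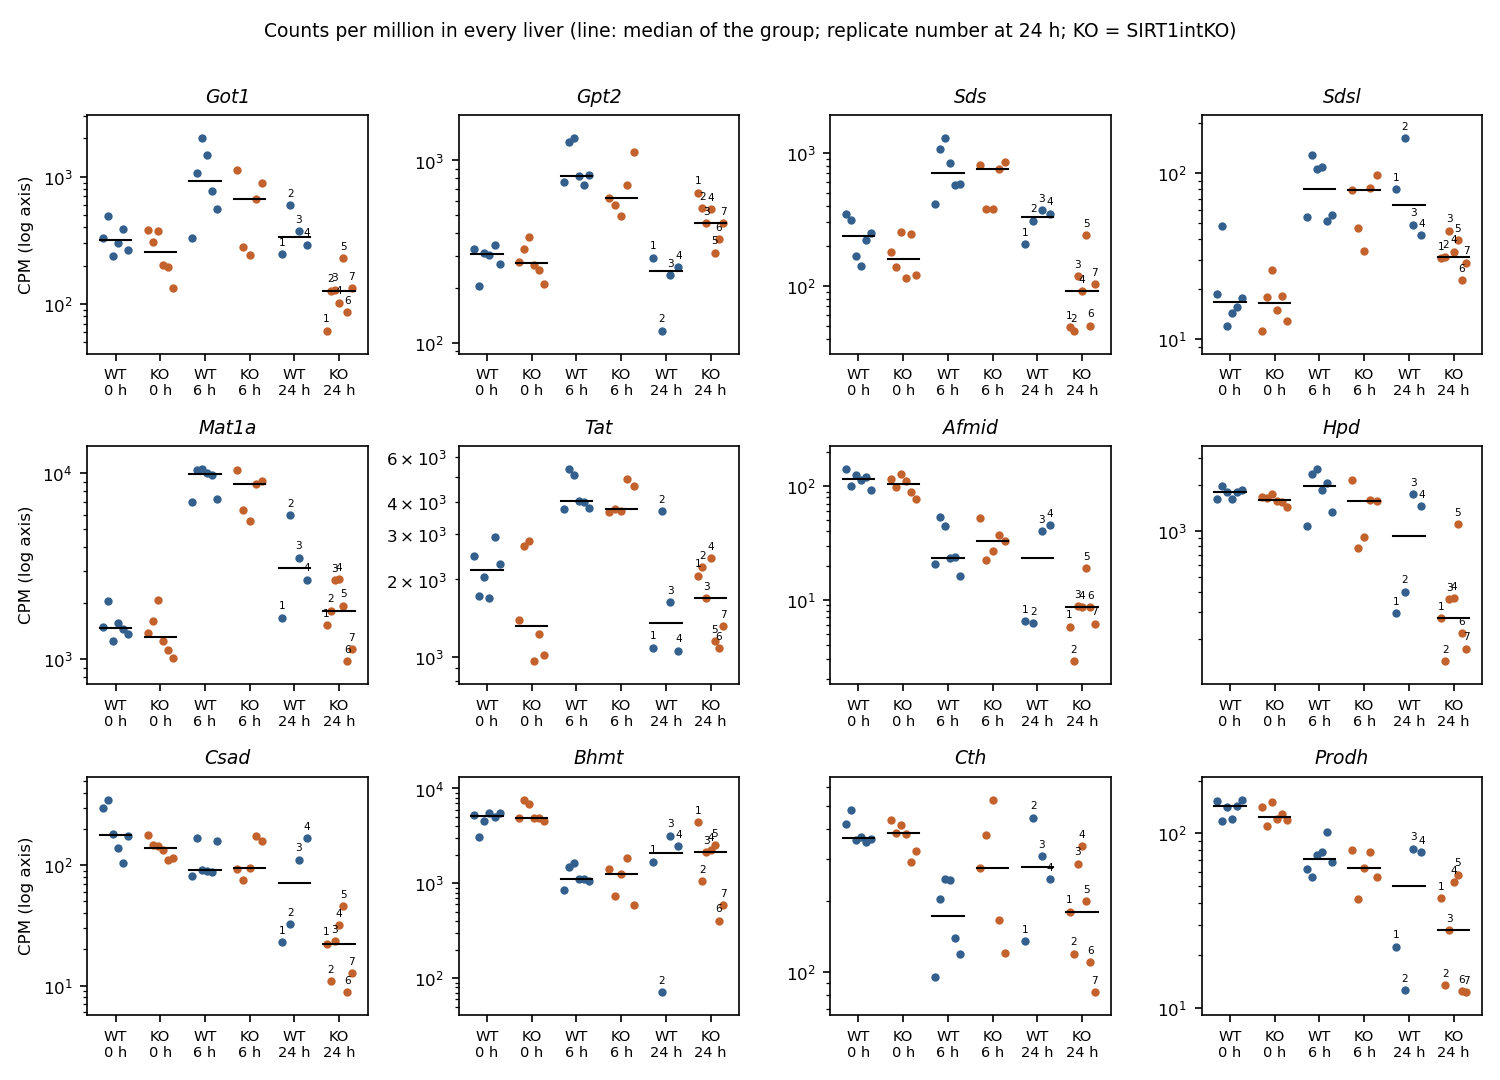
Level in CPM (log scale) of single members in each liver (points) against genotype and time, with the group median as a bar. The medians of Got1, Gpt2, Tat, Sds, Sdsl and Mat1a are higher at 6 h than at 0 h in both genotypes, and the WT 24 h livers separate into pairs for Hpd and Afmid.

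Tryptophan breakdown fell at 5 of its 6 members by 24 h, and Kmo alone rose early. Of the 6 members, 5 fell at 24 h in each genotype (14.6% of all genes in WT and 24% in SIRT1intKO). The median log2 fold change was -1.14 in WT and -1.81 in SIRT1intKO. Without WT 24 h replicates 1 and 2, 1 of 6 fell in WT (median -0.48, with 2.48% of all genes falling), and without replicates 3 and 4 all 6 did (median -2.34, with 23.6%). Tdo2, the tryptophan dioxygenase of the first step, was in WT livers at 919 to 1684 CPM (median 1464) at 0 h, 1442 to 2963 (median 1949) at 6 h and 234, 325, 809.8 and 930.1 at 24 h. In SIRT1intKO livers it was at 765 to 1857 CPM (median 1305) at 0 h, 1579.9, 762, 628, 1483 and 1541 at 6 h and 187 to 565 (median 330.3) at 24 h. All SIRT1intKO 24 h livers were below all of that genotype at 0 h and 6 h, while in WT the 24 h range met the 0 h range through replicate 4.

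Tdo2 was called lower at 24 h in WT (log2 fold change -1.30, SE 0.35, adjusted p = 0.00440) and SIRT1intKO (log2 fold change -1.90, SE 0.29, adjusted p = 4.31e-06), and in WT it was at -0.70 with adjusted p = 0.302 without replicates 1 and 2. At 6 h it had the smallest unadjusted p between genotypes of all members, 0.0210, with a log2 fold change of -0.76, SE 0.31, adjusted p = 0.736. Afmid, the arylformamidase that yields kynurenine, was in WT livers at 93.0 to 142 CPM (median 117) at 0 h, 16.03 to 53.6 (median 23.54) at 6 h and 6.46, 6.17, 40.3 and 45.5 at 24 h. The SIRT1intKO livers had it at 76.9 to 129 CPM (median 106) at 0 h, 52.3, 22.5, 27.04, 37.02 and 32.6 at 6 h and 2.86 to 18.9 (median 8.57) at 24 h. All operated livers were below all 0 h livers in both genotypes, and WT 24 h replicates 1 and 2 lay within the SIRT1intKO 24 h range while replicates 3 and 4 lay above it.

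Afmid had the lowest log2 fold change of all members at 24 h in either genotype, at -2.23, SE 0.47, adjusted p = 0.000553 in WT and -3.60, SE 0.40, adjusted p = 3.64e-08 in SIRT1intKO, a 12.2-fold fall. At 6 h it was already called lower in WT (-1.93, adjusted p = 0.000284) and SIRT1intKO (-1.60, adjusted p = 0.00308). Between genotypes at 24 h it was called lower in SIRT1intKO (log2 fold change -1.53, SE 0.41, adjusted p = 0.0270, or 0.152 without WT 24 h replicate 4), at -2.33 with adjusted p = 0.000278 without WT 24 h replicates 1 and 2 and 0.41 with adjusted p = 0.548 without replicates 3 and 4. Kynu, the kynureninase and, like Hao1, named by the study on these same livers, so that its direction is not independent evidence, was in WT livers at 180.1 to 199.7 CPM (median 189) at 0 h, 60.6 to 115 (median 91.7) at 6 h and 41.8, 28.7, 166 and 149 at 24 h. Levels in SIRT1intKO livers were 155 to 223 CPM (median 187) at 0 h, 144, 48.0, 57.2, 77.7 and 69.7 at 6 h and 33.3 to 110.2 (median 46.6) at 24 h. All operated livers of both genotypes were below their 0 h livers.

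Kynu was called lower at 6 h in WT (-1.08, adjusted p = 0.00728) and SIRT1intKO (-1.24, adjusted p = 0.00396), and at 24 h it fell in WT (-0.97, adjusted p = 0.0341, or 0.165 without WT 24 h replicate 2; without replicates 1 and 2 -0.26 with adjusted p = 0.731) and was called lower in SIRT1intKO (-1.82, adjusted p = 1.41e-05). Kmo, the kynurenine monooxygenase between Afmid and Kynu, went the other way first, rising at 6 h in WT (0.76, adjusted p = 8.70e-05) and SIRT1intKO (0.63, adjusted p = 0.00113) before it fell below 0 h at 24 h (-0.44, adjusted p = 0.0320, or 0.196 without WT 24 h replicate 1 and -0.47, adjusted p = 0.00440). Haao, the hydroxyanthranilate dioxygenase further down, was called lower at 24 h in WT (-1.38, adjusted p = 0.000170) and SIRT1intKO (-1.79, adjusted p = 1.25e-07). Acmsd, a decarboxylase that draws the pathway away from NAD+ synthesis, passed no test with all livers, with WT 24 h livers at 34.9, 9.37, 105 and 90.1 CPM. Without replicates 3 and 4 it fell in WT at 24 h (-1.31 with adjusted p = 0.0403).

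The members were searched in their promoters. RefSeq promoters of GRCm38.p6, running from 250 bases before to 50 after the start, were held for 32 of the 39 members, and Gpt, Kynu, Sds, Sdsl, Mat1a, Cth and Cdo1 had no entry. Short words known as the core of sites of liver factors were searched on both strands, with no overlap between matches in the promoters shown: TTGCAAT of the C/EBP type (in 2.22% of 32851 promoters), TGTTTGC of the forkhead type (5.07%), GTTAAT of an HNF1 half-site (7.1%), CAAAGTCC of the HNF4 type (1.42%) and TGACGTCA, the CRE (1.79%). Among the members TTGCAAT was in 1, TGTTTGC in 3 and GTTAAT in 4, and the last pair in 0. The promoters of Tdo2 (chr3:81975679-81975978, minus strand), Hao1 (chr2:134554303-134554602, minus), Prodh2 (chr7:30493408-30493707, plus) and Haao (chr17:83846741-83847040, minus) are shown because they were called lower in SIRT1intKO at 24 h and hold a match, and that of Got1 (chr19:43524556-43524855, minus), also called lower there, because it rose early. Capitals mark a match, TGTTTGC in Tdo2 and Hao1, GTTAAT in Haao and GTTAAT and TTGCAAT in Prodh2, read from either strand, and Got1 held none. Of the 18 members called lower there 17 had a promoter entry and 4 of these a match, and the others without a match are not shown. Acmsd, Bckdhb and Ftcd, which were not called lower there, also held a match. Whether a match goes with being called lower was not tested.
Tdo2: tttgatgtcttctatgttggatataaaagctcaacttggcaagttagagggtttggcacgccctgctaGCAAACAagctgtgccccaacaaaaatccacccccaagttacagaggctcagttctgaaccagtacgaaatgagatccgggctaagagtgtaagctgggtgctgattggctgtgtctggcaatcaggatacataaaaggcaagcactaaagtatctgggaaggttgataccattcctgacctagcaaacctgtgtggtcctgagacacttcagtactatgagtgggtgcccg
Hao1: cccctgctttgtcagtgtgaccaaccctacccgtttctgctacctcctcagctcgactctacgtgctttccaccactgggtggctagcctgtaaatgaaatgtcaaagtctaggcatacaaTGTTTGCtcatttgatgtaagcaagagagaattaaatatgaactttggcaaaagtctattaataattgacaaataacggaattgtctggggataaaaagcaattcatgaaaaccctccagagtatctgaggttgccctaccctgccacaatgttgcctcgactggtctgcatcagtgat
Prodh2: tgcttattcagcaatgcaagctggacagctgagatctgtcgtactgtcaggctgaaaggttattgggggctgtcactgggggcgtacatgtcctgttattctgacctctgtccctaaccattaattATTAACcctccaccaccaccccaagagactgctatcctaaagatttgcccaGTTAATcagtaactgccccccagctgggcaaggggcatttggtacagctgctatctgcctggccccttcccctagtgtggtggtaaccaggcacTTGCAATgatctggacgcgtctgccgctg
Haao: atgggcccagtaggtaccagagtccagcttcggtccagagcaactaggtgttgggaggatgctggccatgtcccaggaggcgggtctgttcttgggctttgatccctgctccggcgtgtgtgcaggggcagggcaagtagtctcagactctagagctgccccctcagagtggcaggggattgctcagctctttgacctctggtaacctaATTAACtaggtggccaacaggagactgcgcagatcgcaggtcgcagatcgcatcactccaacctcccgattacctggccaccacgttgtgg
Got1: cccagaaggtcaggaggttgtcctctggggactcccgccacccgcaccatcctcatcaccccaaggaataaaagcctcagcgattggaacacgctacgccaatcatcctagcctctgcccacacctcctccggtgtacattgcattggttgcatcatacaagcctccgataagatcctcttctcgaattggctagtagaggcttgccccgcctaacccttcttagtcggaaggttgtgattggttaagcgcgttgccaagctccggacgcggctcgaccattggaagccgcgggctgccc
The match in Tdo2 lies from -182 to -176 and that in Hao1 from -129 to -123, counted from the start. A match is only these letters in this window, and no binding was measured.

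Serine and glycine breakdown moved in opposite directions early on. Sds and Sdsl, the serine dehydratase that makes pyruvate from serine and its paralog, were called higher at 6 h in both genotypes, while Gldc, Amt and Gcsh of the glycine cleavage system all fell. At 24 h against 0 h none of these 3 was past the threshold with all livers. All 3 were called lower in WT without replicates 3 and 4, and Amt and Gcsh fell in SIRT1intKO without replicate 5 (-0.87 with adjusted p = 0.0185 and -0.46 with adjusted p = 0.0231) or without either pair of WT livers. Sds in WT livers was at 141 to 349 CPM (median 236) at 0 h, 415 to 1283 (median 707) at 6 h and 206, 308, 372 and 348 at 24 h. Its SIRT1intKO levels were 114 to 252 CPM (median 159.7) at 0 h, 806, 379, 377, 754 and 854 at 6 h and 46.2 to 241 (median 91.2) at 24 h. All 6 h livers were above all 0 h livers in both genotypes, and 1 SIRT1intKO 24 h liver, replicate 5, reached into the WT 24 h range.

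Sds rose by 3.30-fold in WT (log2 fold change 1.72, SE 0.35, adjusted p = 0.000291) and by 3.61-fold in SIRT1intKO (log2 fold change 1.85, SE 0.37, adjusted p = 0.000196) at 6 h. It then fell to 24 h in WT (-1.36, adjusted p = 0.0196, or 0.0903 without WT 24 h replicate 1) and SIRT1intKO (-2.67, adjusted p = 4.51e-06), in the latter to below 0 h (-0.81, adjusted p = 0.0416, or 0.105 without SIRT1intKO 0 h replicate 3). Against WT at 24 h it was called lower in SIRT1intKO (log2 fold change -1.63, SE 0.36, adjusted p = 0.0118). It was also called lower without WT 24 h replicates 1 and 2 (-1.85 with adjusted p = 0.00519), without replicates 3 and 4 (-1.39 with adjusted p = 0.0314) and without SIRT1intKO 24 h replicate 5 (-2.02 with adjusted p = 0.000369). Sdsl in WT livers was at 11.95 to 48.0 CPM (median 16.7) at 0 h, 51.3 to 129 (median 80.5) at 6 h and 79.9, 161, 48.8 and 42.1 at 24 h. Among SIRT1intKO livers it was at 11.2 to 26.001 CPM (median 16.4) at 0 h, 78.6, 46.6, 33.8, 81.7 and 97.3 at 6 h and 22.5 to 44.8 (median 31.3) at 24 h. Here WT 24 h replicate 2 was the highest and the WT and SIRT1intKO 24 h ranges overlapped only through WT replicate 4.

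Sdsl was the member with the highest log2 fold change in WT at 24 h (log2 fold change 1.98, SE 0.37, adjusted p = 0.000149) and also rose in SIRT1intKO (log2 fold change 0.97, SE 0.33, adjusted p = 0.0142). The rise in WT was 1.11 with adjusted p = 0.103, not past the threshold, without WT 24 h replicates 1 and 2. Its rise at 6 h was 3.99-fold in WT and 4.02-fold in SIRT1intKO. It was called lower in SIRT1intKO than in WT at 24 h (log2 fold change -1.33, SE 0.35, adjusted p = 0.0239, or 0.181 without WT 24 h replicate 2), at -0.46 with adjusted p = 0.446 without WT 24 h replicates 1 and 2 and -1.90 with adjusted p = 0.00117 without replicates 3 and 4. Sds and Sdsl are neighbours on the chromosome in the RefSeq order of protein-coding genes.

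Gldc, the decarboxylase that opens glycine cleavage, was in WT livers at 115 to 167 CPM (median 153) at 0 h, 56.3 to 99.7 (median 71.3) at 6 h and 91.2, 46.5, 154 and 160.2 at 24 h. In SIRT1intKO livers it was at 124 to 226 CPM (median 161) at 0 h, 97.3, 72.4, 83.8, 66.9 and 57.7 at 6 h and 120.5 to 164 (median 145) at 24 h. All 6 h livers were below all 0 h livers in both genotypes, and all SIRT1intKO 24 h livers were above all of that genotype at 6 h. Gldc fell at 6 h in WT (log2 fold change -0.96, SE 0.21, adjusted p = 0.000451) and SIRT1intKO (log2 fold change -1.14, SE 0.22, adjusted p = 0.000134) and rose again from 6 h to 24 h in SIRT1intKO (log2 fold change 0.93, SE 0.21, adjusted p = 0.00172), while in WT the difference was not past the threshold (log2 fold change 0.56, SE 0.23, adjusted p = 0.0838). Without WT 24 h replicates 1 and 2, 3 of the 5 members of this branch rose in WT over this interval (5.54% of all genes), 2 of them called. Without replicates 3 and 4, 0 of the 5 rose there (18.2% of all genes). Amt, the aminomethyltransferase, fell at 6 h in WT (-1.22, adjusted p = 0.00323) and SIRT1intKO (-1.56, adjusted p = 0.000685), and the WT 24 h livers were at 14.1, 5.54, 59.4 and 52.9 CPM. Gcsh, the lipoate-carrying protein of the system, fell at 6 h by less (-0.73, adjusted p = 0.00160 and -0.62, adjusted p = 0.00977) and passed no test at 24 h with all livers. Without WT 24 h replicates 3 and 4 all 3 were higher in SIRT1intKO than in WT at 24 h, Gldc at 1.04 with adjusted p = 0.00494, Amt at 1.58 with adjusted p = 0.00157 and Gcsh at 0.65 with adjusted p = 0.0254. Amt was lower there without replicates 1 and 2 (-0.92 with adjusted p = 0.0102).

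In the methionine, homocysteine and cysteine branch the sharpest rise and the sharpest early fall stood side by side. Mat1a, which makes S-adenosylmethionine in adult liver, had the highest log2 fold change of all members at 6 h, and Bhmt, which remethylates homocysteine with betaine, had the lowest, in both genotypes. Of the 9 members, 2 fell in WT at 24 h and 6 in SIRT1intKO (14.6% and 24% of all genes). In WT 1 fell without replicates 1 and 2 (2.48% of all genes), and 5 fell without replicates 3 and 4 (23.6%), each of them called. Mat1a in WT livers was at 1251 to 2063 CPM (median 1470.4) at 0 h, 7025 to 10529 (median 9906) at 6 h and 1676, 5943, 3517 and 2677 at 24 h. The SIRT1intKO livers had it at 1018 to 2079.7 CPM (median 1322) at 0 h, 10461, 6320.2, 5530.2, 8741 and 9092 at 6 h and 976 to 2688 (median 1829) at 24 h. All 6 h livers were above all 0 h and 24 h livers of their genotype.

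Mat1a rose 6.00-fold in WT (log2 fold change 2.58, SE 0.27, adjusted p = 1.15e-08) and 5.69-fold in SIRT1intKO (log2 fold change 2.51, SE 0.27, adjusted p = 3.76e-08) at 6 h. At 24 h it was called higher in WT (log2 fold change 1.17, SE 0.28, adjusted p = 0.00175), where without replicates 1 and 2 it was 1.02 with adjusted p = 0.0382, and in SIRT1intKO it was not past the threshold (log2 fold change 0.37, SE 0.24, adjusted p = 0.209). Against WT at 24 h it was lower in SIRT1intKO (log2 fold change -0.92, SE 0.27, adjusted p = 0.0380, or 0.241 without WT 24 h replicate 2), at -0.77 with adjusted p = 0.0662 without WT 24 h replicates 1 and 2 and -1.1005 with adjusted p = 0.0217 without replicates 3 and 4. Bhmt in WT livers was at 3108 to 5501 CPM (median 5111) at 0 h, 857 to 1655 (median 1117) at 6 h and 1692, 71.7, 3185 and 2486 at 24 h. Levels in SIRT1intKO livers were 4542 to 7587 CPM (median 4878) at 0 h, 1409, 739, 1268, 1833 and 592 at 6 h and 403 to 4404 (median 2144) at 24 h. All 6 h livers were below all 0 h livers, and WT 24 h replicate 2 was far below the rest of its group.

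Bhmt fell by 3.96-fold in WT (log2 fold change -1.99, SE 0.50, adjusted p = 0.00226) and by 4.79-fold in SIRT1intKO (log2 fold change -2.26, SE 0.54, adjusted p = 0.00142) at 6 h, and at 24 h it was called lower in SIRT1intKO (log2 fold change -1.55, SE 0.47, adjusted p = 0.00692) but not in WT (log2 fold change -1.37, SE 0.57, adjusted p = 0.0593). Reads of Bhmt are uncertain to the extent that they were shared with the near copies Bhmt1b, at medians of 24.5 CPM in WT and 23.1 in SIRT1intKO at 0 h, and Bhmt-ps1, below 1.12 in each liver at 0 h. Its neighbour and paralog Bhmt2, which uses S-methylmethionine, was in WT livers at 144 to 236 CPM (median 204) at 0 h, 73.8 to 120.2 (median 115) at 6 h and 142, 51.7, 233 and 213 at 24 h. Its SIRT1intKO levels were 151 to 258 CPM (median 187) at 0 h, 117, 66.9, 81.0, 88.5 and 94.5 at 6 h and 107 to 196 (median 169) at 24 h. All 6 h livers were below all 0 h livers in both genotypes. Bhmt2 fell at 6 h in WT (log2 fold change -0.89, SE 0.23, adjusted p = 0.00264) and SIRT1intKO (log2 fold change -1.18, SE 0.25, adjusted p = 0.000348) and rose from 6 h to 24 h in SIRT1intKO (0.78, adjusted p = 0.0141).

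Csad, which turns cysteine sulfinate toward taurine, had the smallest adjusted p of all members between genotypes at 24 h. In WT livers Csad was at 104 to 348 CPM (median 177) at 0 h, 80.7 to 167 (median 90.4) at 6 h and 22.9, 32.5, 111 and 168 at 24 h. Among SIRT1intKO livers it was at 111 to 178 CPM (median 139) at 0 h, 92.0, 75.7, 94.3, 175 and 159 at 6 h and 8.85 to 45.4 (median 22.2) at 24 h. All SIRT1intKO 24 h livers were below all of that genotype at 0 h and 6 h, and WT 24 h replicates 1 and 2 lay within their range. Csad was called lower at 24 h in SIRT1intKO (log2 fold change -2.63, SE 0.39, adjusted p = 2.92e-06) and in WT (log2 fold change -1.31, SE 0.45, adjusted p = 0.0255, or 0.120 without WT 24 h replicate 2), the latter not without WT 24 h replicates 1 and 2 (-0.57 with adjusted p = 0.559). Between genotypes it was called lower in SIRT1intKO (log2 fold change -1.91, SE 0.41, adjusted p = 0.00975, or 0.05996 without WT 24 h replicate 4), at -2.65 with adjusted p = 0.000274 without WT 24 h replicates 1 and 2 and -0.35 with adjusted p = 0.622 without replicates 3 and 4.

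Cth, the cystathionine lyase that ends transsulfuration, was in WT livers at 352 to 479 CPM (median 367) at 0 h, 95.7 to 248 (median 172) at 6 h and 135, 446, 308 and 247 at 24 h. In SIRT1intKO livers it was at 289.8 to 438 CPM (median 384) at 0 h, 276, 376, 530.2, 166 and 121 at 6 h and 82.7 to 338 (median 180.0) at 24 h. At 6 h all WT livers were below the WT 0 h range, while the SIRT1intKO livers spread over and past theirs. Cth was called lower at 6 h in WT (log2 fold change -1.16, SE 0.33, adjusted p = 0.00565) but not in SIRT1intKO (log2 fold change -0.34, SE 0.34, adjusted p = 0.445), and the interaction at 6 h was not past the threshold (0.82, SE 0.47, adjusted p = 1.00). Cbs, which opens transsulfuration, fell in SIRT1intKO at 24 h (-0.93, adjusted p = 0.00400), with WT 24 h livers at 229, 216, 733 and 774 CPM. Gnmt, which spends S-adenosylmethionine on glycine, fell there as well (-0.99, adjusted p = 0.000806), and Cdo1, the cysteine dioxygenase, passed no test with all livers. Ahcy, which splits S-adenosylhomocysteine, fell at 24 h in WT (-0.57, adjusted p = 0.00931, or 0.0580 without WT 24 h replicate 1) and SIRT1intKO (-1.16, adjusted p = 1.57e-07) and was lower in SIRT1intKO than in WT at 24 h (-0.57, adjusted p = 0.0294, or 0.134 without WT 24 h replicate 2; without WT 24 h replicates 1 and 2 -0.44 with adjusted p = 0.0988). Ahcy too was singled out by the study on these livers, so that its direction is not independent evidence.

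**Figure D4:**
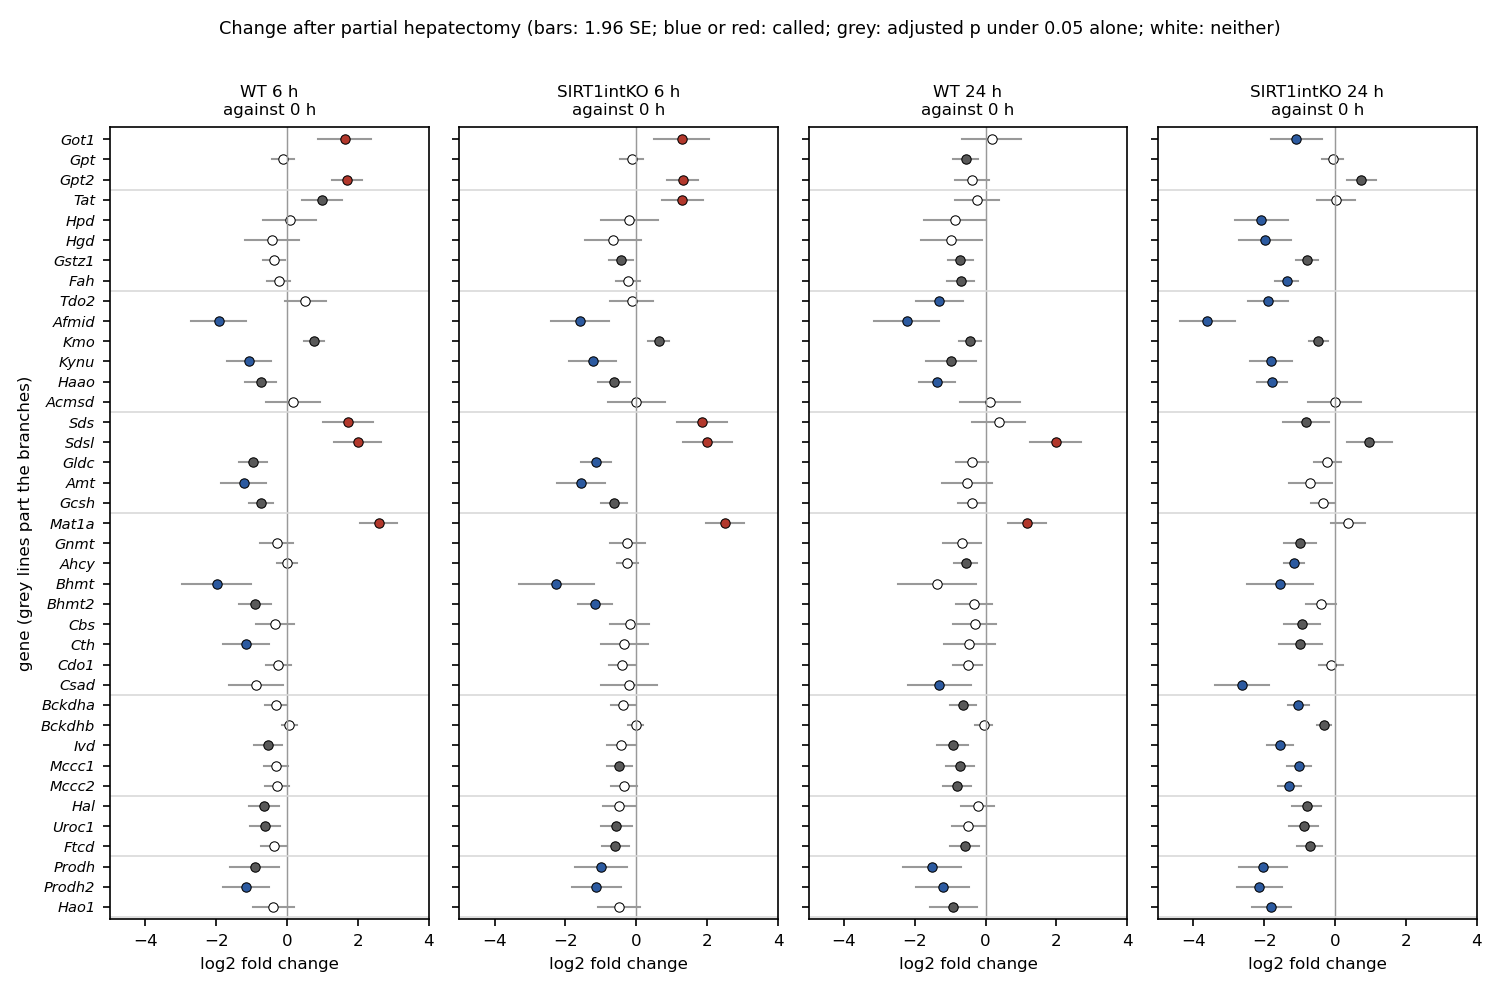
Log2 fold change of each member (rows, grouped by branch) at 6 h and 24 h against 0 h in WT and SIRT1intKO, with bars for the 95% interval. At 24 h most SIRT1intKO points lie to the left of 0, from -3.60 for Afmid, and the widest bars are those of Bhmt.

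Of the 5 members of branched-chain breakdown, 1 fell at 6 h in each genotype, 4 fell at 24 h in WT and 5 in SIRT1intKO, of which 4 were called. Of all genes 18.5% fell at 6 h in WT and 17.6% in SIRT1intKO, so the count at 6 h is near that share. At 24 h 14.6% and 24% of all genes fell. From 6 h to 24 h 0 members fell in WT and 5 in SIRT1intKO (6.43% and 14.4% of all genes). With WT 24 h replicates 1 and 2 left out none of the 5 fell in WT over either interval. With replicates 3 and 4 left out 4 fell in WT against 0 h, each of them called, and 4 from 6 h to 24 h, of which 3 were called. Bckdhb, a subunit of the branched-chain ketoacid dehydrogenase, was in WT livers at 63.0 to 77.2 CPM (median 64.8) at 0 h, 59.8 to 76.5 (median 72.5) at 6 h and 84.2, 57.6, 59.0 and 56.0 at 24 h. The SIRT1intKO livers had it at 56.5 to 71.4 CPM (median 65.2) at 0 h, 76.4, 61.8, 59.1, 60.4 and 58.3 at 6 h and 41.6 to 60.0 (median 52.8) at 24 h. The ranges overlapped between times in both genotypes. Bckdhb fell in SIRT1intKO at 24 h by a small amount (log2 fold change -0.31, SE 0.10, adjusted p = 0.0122, or 0.0641 without SIRT1intKO 24 h replicate 6), and passed no test in WT.

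Ivd, the isovaleryl-CoA dehydrogenase of leucine breakdown, was in WT livers at 184 to 215 CPM (median 199) at 0 h, 89.6 to 185 (median 135) at 6 h and 62.5, 68.1, 145 and 144 at 24 h. Levels in SIRT1intKO livers were 166 to 210.1 CPM (median 196) at 0 h, 182, 106, 128, 158 and 139.9 at 6 h and 45.9 to 102 (median 66.9) at 24 h. All 24 h livers were below all 0 h livers of their genotype. As Ivd was singled out by the study on these same livers, its direction is not independent evidence. Ivd fell at 24 h in WT (log2 fold change -0.93, SE 0.23, adjusted p = 0.00214; without replicates 1 and 2 -0.46 with adjusted p = 0.279) and was called lower in SIRT1intKO (log2 fold change -1.55, SE 0.19, adjusted p = 1.67e-07). Between genotypes at 24 h it was lower in SIRT1intKO (log2 fold change -0.68, SE 0.21, adjusted p = 0.0464, or 0.188 without WT 24 h replicate 4), at -1.15 with adjusted p = 0.000853 without WT 24 h replicates 1 and 2 and -0.03 with adjusted p = 0.948 without replicates 3 and 4. Mccc1 and Mccc2, the subunits of methylcrotonyl-CoA carboxylase next in line, were called lower in SIRT1intKO at 24 h (-1.02, adjusted p = 1.17e-05 and -1.29, adjusted p = 4.50e-07), as was Bckdha (-1.04, adjusted p = 3.08e-06), the partner subunit of Bckdhb.

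Of Hal, Uroc1 and Ftcd, which take histidine through urocanate to formiminoglutamate and on to the folate pool, 2 fell at 6 h in each genotype, 1 at 24 h in WT and 3 at 24 h in SIRT1intKO, and 0 were called in any comparison by edgeR with all livers. Of all genes 18.5% fell at 6 h in WT and 17.6% in SIRT1intKO, and at 24 h 14.6% and 24% did. At 24 h against 0 h 1 member was called lower in WT without replicates 3 and 4, and 1 in SIRT1intKO without replicate 5. Hal, the histidine ammonia-lyase, was in WT livers at 244 to 297 CPM (median 262) at 0 h, 105 to 254 (median 171) at 6 h and 106, 237, 311 and 262 at 24 h. Its SIRT1intKO levels were 221 to 295 CPM (median 271) at 0 h, 260.4, 172, 185, 183 and 141 at 6 h and 82.8 to 199 (median 152) at 24 h. All SIRT1intKO 24 h livers were below all of that genotype at 0 h, while the WT livers overlapped at each time. Hal fell at 6 h in WT (log2 fold change -0.66, SE 0.22, adjusted p = 0.0160) and at 24 h in SIRT1intKO (log2 fold change -0.80, SE 0.21, adjusted p = 0.00189), and in WT at 24 h the difference was not past the threshold (log2 fold change -0.22, SE 0.24, adjusted p = 0.493). The interaction at 24 h for Hal was -0.57, SE 0.31, adjusted p = 0.4503.

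Proline and glyoxylate enzymes had the lowest median log2 fold change of the branches at 24 h, -1.21 in WT and -2.04 in SIRT1intKO. All 3 members fell at 24 h in both genotypes (14.6% and 24% of all genes), 2 of them called in WT and 3 in SIRT1intKO (7.4% and 11.1%). With WT 24 h replicates 1 and 2 left out, none of the 3 fell in WT (median -0.49, with 2.48% of all genes falling). Without replicates 3 and 4 all 3 were called lower (median -2.68, with 2588 of all genes called lower). Prodh, the proline dehydrogenase, was in WT livers at 118 to 155 CPM (median 142) at 0 h, 56.0 to 102 (median 71.4) at 6 h and 22.4, 12.6, 81.4 and 77.8 at 24 h. Among SIRT1intKO livers it was at 110.1 to 151 CPM (median 124) at 0 h, 80.6, 42.1, 63.3, 78.3 and 55.9 at 6 h and 12.3 to 57.9 (median 27.8) at 24 h. All operated livers were below all 0 h livers in both genotypes.

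Prodh fell at 6 h in WT (-0.91, adjusted p = 0.0411, or 0.0748 without WT 6 h replicate 2) and SIRT1intKO (-1.001, adjusted p = 0.0343, or 0.0803 without SIRT1intKO 6 h replicate 2) and was called lower at 24 h in WT (log2 fold change -1.51, SE 0.41, adjusted p = 0.00561; without replicates 1 and 2 -0.80 with adjusted p = 0.298) and SIRT1intKO (log2 fold change -2.04, SE 0.35, adjusted p = 1.84e-05). Prodh2, the hydroxyproline dehydrogenase, was in WT livers at 187 to 278 CPM (median 214) at 0 h, 87.8 to 111 (median 96.5) at 6 h and 28.2, 39.4, 163 and 147 at 24 h. In SIRT1intKO livers it was at 156 to 267 CPM (median 212) at 0 h, 147, 94.9, 70.6, 96.1 and 72.5 at 6 h and 25.5 to 124 (median 38.3) at 24 h. All operated livers were again below all 0 h livers, and SIRT1intKO 24 h replicate 5 was the highest of its group. Prodh2 was called lower at 6 h in WT (-1.16, adjusted p = 0.00677) and SIRT1intKO (-1.13, adjusted p = 0.0113) and at 24 h in WT (log2 fold change -1.21, SE 0.38, adjusted p = 0.0149, or 0.0848 without WT 24 h replicate 2; without replicates 1 and 2 -0.49 with adjusted p = 0.508) and SIRT1intKO (log2 fold change -2.14, SE 0.32, adjusted p = 3.87e-06; without replicate 5 -2.59 with adjusted p = 2.20e-08).

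Hao1, the glycolate oxidase that makes glyoxylate and one of the genes named by the study, was in WT livers at 201 to 256 CPM (median 232) at 0 h, 137 to 228 (median 181) at 6 h and 73.0, 33.3, 191 and 191 at 24 h. The SIRT1intKO livers had it at 217 to 303 CPM (median 265) at 0 h, 205, 137, 158, 270.2 and 159.9 at 6 h and 46.5 to 163 (median 59.9) at 24 h. All 24 h livers were below all 0 h livers of their genotype, with WT 24 h replicates 3 and 4 just under theirs. Hao1 fell at 24 h in WT (log2 fold change -0.91, SE 0.33, adjusted p = 0.0342, or 0.161 without WT 24 h replicate 2; without replicates 1 and 2 -0.26 with adjusted p = 0.713) and was called lower in SIRT1intKO (log2 fold change -1.80, SE 0.28, adjusted p = 6.96e-06). At 6 h it was not past the threshold in WT (-0.38, adjusted p = 0.320) or SIRT1intKO (-0.49, adjusted p = 0.213).

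Got1, Gpt2, Tat, the serine dehydratases and Mat1a rose at 6 h, glycine cleavage and betaine remethylation fell at 6 h, and members of the tryptophan, proline and glyoxylate, branched-chain and later tyrosine steps were called lower at 24 h in SIRT1intKO. The order of the median log2 fold changes in SIRT1intKO at 24 h ran from -2.04 for proline and glyoxylate, -1.81 for tryptophan, -1.36 for tyrosine, -1.04 for branched-chain and -0.99 for methionine and cysteine to -0.80 for histidine, -0.35 for serine and glycine and -0.06 for the transaminases. In WT the corresponding medians were -1.21, -1.14, -0.72, -0.73, -0.51, -0.49, -0.39 and -0.38. These WT medians were -0.49, -0.48, -0.29, -0.31, -0.49, -0.01, 0.25 and -0.25 without replicates 1 and 2 and -2.68, -2.34, -1.32, -1.37, -1.02, -0.84, -1.05 and -0.51 without replicates 3 and 4. The difference between branches was not tested, and the comparisons with 0 h of 1 genotype share their controls.

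**Figure D5:**
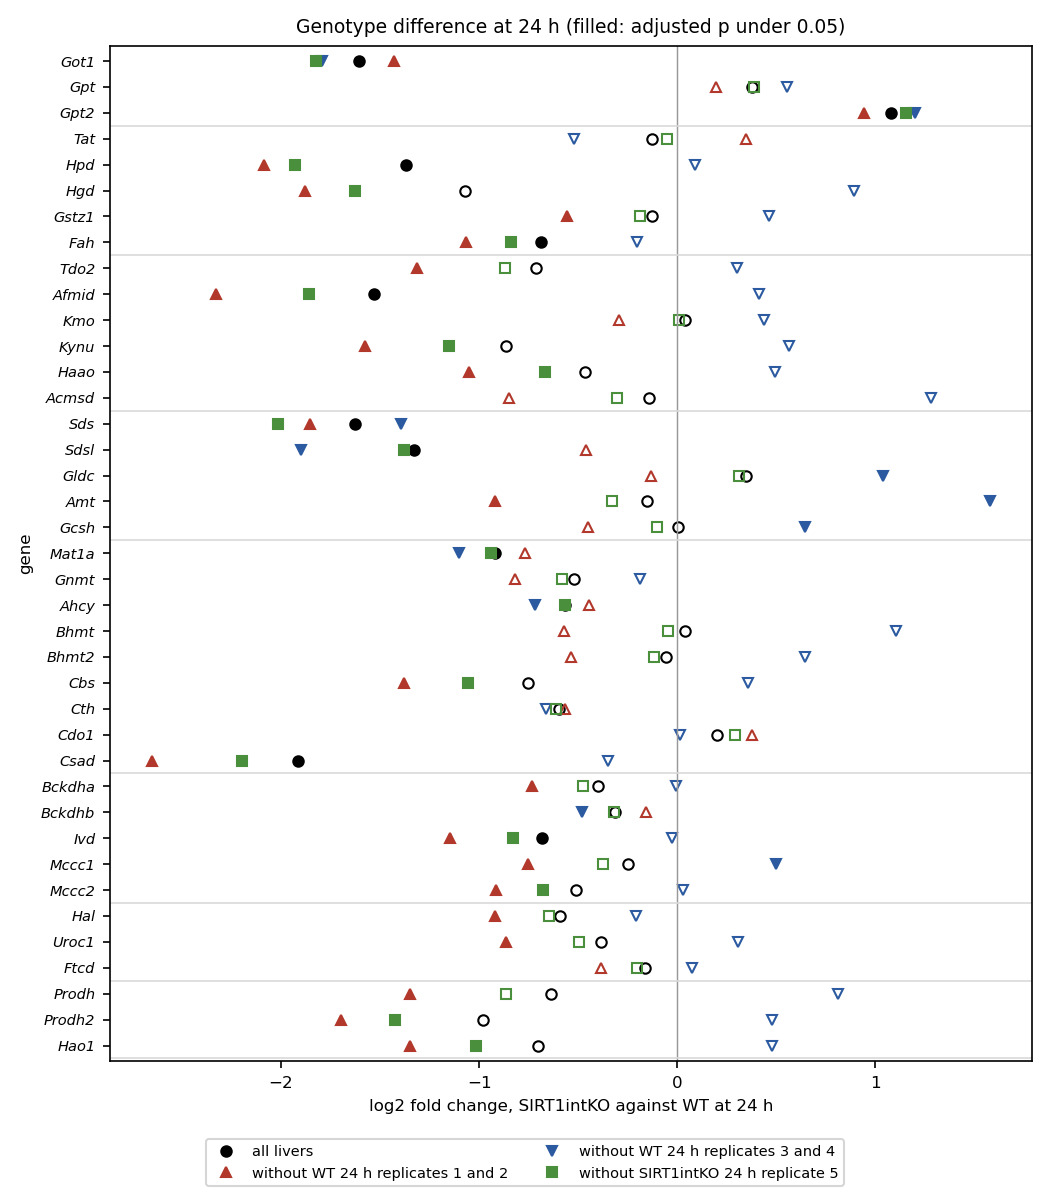
Log2 fold change between SIRT1intKO and WT livers at 24 h for each member (rows, grouped by branch), fitted with all livers, without WT 24 h replicates 1 and 2, without replicates 3 and 4, and without SIRT1intKO 24 h replicate 5. The points of Got1, Gpt2 and Sds keep their side of 0 in the 4 fits, while those of Hpd and Afmid change side without replicates 3 and 4.

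Among the 11 members past the threshold between genotypes at 24 h, Got1, Gpt2 and Sds were past it in all 4 of these fits, and Got1 and Sds were called in each. In the fit with the looser filter, which keeps genes down to a single count, 6 of the 11 stayed past the threshold, and Hpd (adjusted p = 0.0617), Fah (0.0512), Mat1a (0.0709), Ahcy (0.0962) and Ivd (0.0871) did not. Leaving out any 1 of the 34 livers kept 2 of the 11, Gpt2 and Sds, past the threshold.

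The other genes of amino acid breakdown, 57 by a list of symbols of which 55 were tested, also fell more often than they rose. At 6 h 24 fell and 5 rose in WT, where 18.5% and 18.9% of all genes did, and 22 fell and 4 rose in SIRT1intKO (17.6% and 20.9%). At 24 h 36 fell and 1 rose in WT (14.6% and 19.5% of all genes) and 40 fell and 1 rose in SIRT1intKO (24% and 26.2%), with medians of -0.69 and -0.84. In WT 5 fell and 0 rose without replicates 1 and 2 (2.48% and 3.02% of all genes, median -0.38), and 44 fell and 1 rose without replicates 3 and 4 (23.6% and 25.2%, median -1.29). In SIRT1intKO 42 fell and 1 rose without replicate 5 (25.6% and 27% of all genes, median -0.95). At 6 h the largest changes among those called were a rise of Aass, which opens lysine breakdown, by 2.64, SE 0.29, adjusted p = 2.77e-08 in WT and 2.51, SE 0.29, adjusted p = 1.13e-07 in SIRT1intKO, and a fall of Ethe1, a persulfide dioxygenase, at -1.91, SE 0.21, adjusted p = 3.34e-08 and -1.90, SE 0.22, adjusted p = 1.37e-07. The next were Ido2, a tryptophan-cleaving dioxygenase, in WT (-1.48, SE 0.34, adjusted p = 0.000920) and Shmt1, a serine hydroxymethyltransferase, in SIRT1intKO (-1.53, SE 0.35, adjusted p = 0.000864).

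At 24 h Aadat, an aminotransferase of kynurenine and aminoadipate, fell in WT (-1.52, SE 0.30, adjusted p = 0.000273; without replicates 1 and 2 -0.93 with adjusted p = 0.0649) and SIRT1intKO (-2.39, SE 0.25, adjusted p = 1.46e-08), Ido2 in WT (-1.84, SE 0.40, adjusted p = 0.000750; without replicates 1 and 2 -1.04 with adjusted p = 0.0240) and Ppm1k, the phosphatase that activates the branched-chain dehydrogenase, in SIRT1intKO (-2.42, SE 0.36, adjusted p = 2.45e-06). Between genotypes at 24 h 2 of the 55 were called lower, where 1.3% of all genes were, Ppm1k (-1.33, SE 0.38, adjusted p = 0.0349) and the liver glutaminase Gls2 (-1.32, SE 0.34, adjusted p = 0.0219), the latter named by the study on these livers. Neither was past the threshold without WT 24 h replicates 3 and 4, Ppm1k at 0.69 with adjusted p = 0.186 and Gls2 at -0.35 with adjusted p = 0.571. Ppm1k was at -2.15 with adjusted p = 0.000274 and Gls2 at -1.91 with adjusted p = 0.000783 without replicates 1 and 2, and without SIRT1intKO 24 h replicate 5 they were at -1.63 with adjusted p = 0.00472 and -1.65 with adjusted p = 0.000989. Of the 55, 15 were called lower and 1 higher between genotypes without WT replicates 1 and 2, 2 and 1 without replicates 3 and 4, and 8 and 0 without SIRT1intKO replicate 5, and the median went from -0.24 to -0.66, 0.33 and -0.32.

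Of 12 regulators on a list of symbols, Cebpa was the 1 called between genotypes at 24 h (-1.37, SE 0.30, adjusted p = 0.0103). That difference was -1.72 with adjusted p = 0.00194 without WT 24 h replicates 1 and 2, -0.95 with adjusted p = 0.0713 without replicates 3 and 4 and -1.66 with adjusted p = 0.000369 without SIRT1intKO replicate 5, and against 0 h it was called lower in SIRT1intKO at 24 h (-1.91, SE 0.28, adjusted p = 2.23e-06). Klf15 was called lower at 24 h in WT (-1.72, SE 0.42, adjusted p = 0.00243; without replicates 1 and 2 -0.95 with adjusted p = 0.174) and SIRT1intKO (-2.01, SE 0.35, adjusted p = 2.55e-05), Foxa2, also named by the study, in SIRT1intKO at 24 h (-1.46, SE 0.38, adjusted p = 0.00205), and Ppargc1a was called higher at 6 h in WT (1.41, SE 0.37, adjusted p = 0.00348). At 6 h in SIRT1intKO 2 of the 12 were called lower and 0 higher, where 8.7% and 7.86% of all genes were. From 6 h to 24 h 3 were called lower in WT and 2 in SIRT1intKO (2.72% and 3.91% of all genes). Between genotypes at 24 h 3 regulators were called lower without WT replicates 1 and 2, and without replicates 3 and 4 0 were called lower and Klf15 higher (1.44 with adjusted p = 0.0148).

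Among the other marker lists at 24 h against 0 h in SIRT1intKO, 5 of 8 monocyte and macrophage markers rose, as did 1 of 5 Kupffer cell, 1 of 6 sinusoidal endothelial, 2 of 6 stellate cell and 1 of 4 red blood cell markers, and both lymphocyte markers tested, of 7 listed, fell. Of the 5 cholangiocyte markers 3 were called higher in each genotype, and in WT 0 without replicates 1 and 2 and 3 without replicates 3 and 4. Of the 8 hepatocyte markers 4 fell and 1 rose in SIRT1intKO (2 called lower, median log2 fold change -0.55), and 5 fell and 1 rose in WT (4 called lower, median -0.79). In WT the numbers that rose on the former 5 lists were 3, 0, 0, 1 and 0, and 1 lymphocyte marker fell. Those that fell in WT were 4 of 8 monocyte and macrophage, 3 of 5 Kupffer cell, 4 of 6 sinusoidal endothelial, 2 of 6 stellate cell and 1 of 4 red blood cell markers, and in SIRT1intKO 1, 1, 3, 2 and 1. In WT without replicates 1 and 2, 0, 0, 0, 1 and 0 markers on these lists rose and 1, 1, 0, 0 and 0 fell, and of the hepatocyte markers 1 fell and 1 rose. Without replicates 3 and 4, 3, 0, 1, 0 and 0 rose and 4, 4, 4, 2 and 1 fell, and of the hepatocyte markers 5 fell and 0 rose.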

How the data were processed

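The deposited table held expected counts per gene and library, which the authors made before deposition with STAR and Salmon on GRCm39 according to the submitters' processing notes. The versions of these tools and the gene annotation were not given. Of the values, 4.975% were not whole, and all were rounded. The table had 1 further column of per-sample values that matched no sample label, and it was not used. No gene symbol in the deposited table held the letter x, and 1255 symbols were restored by gene identifier, 666 of them among the tested genes.

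Counts of all 34 libraries were scaled by TMM and filtered by filterByExpr, which kept 14980 of 78298 genes. Tests were edgeR quasi-likelihood F tests on the 6 group means, with Benjamini-Hochberg adjustment over all 14980 genes. A gene passed at an adjusted p under 0.05 and was called when its absolute log2 fold change was also over 1. SE is the absolute log2 fold change divided by the square root of F, and the common biological coefficient of variation was 0.302. The versions were edgeR 4.0.16, limma 3.58.1, DESeq2 1.42.0, R 4.3.3 and Python 3.11.15. No duplicate libraries were found.

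Alternatives were DESeq2, DESeq2 size factors, upper-quartile scaling, a looser and a stricter filter, adjusted p alone, only the groups compared, the replicate number as a block and leaving out each library. Fits without the WT 24 h replicates 1 and 2, or 3 and 4, were chosen after seeing the data.

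Full values are given for a set of enzymes picked to open or stand for each branch, for members called between genotypes, for the called member with the largest change in each direction against 0 h, for the smallest p where none was called, and for paralog pairs. The members and lists were chosen with earlier results of these data known. Lists of other breakdown enzymes, regulators and cell markers were by symbol.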

Additional observations from a re-analysis of the deposited data

Results flagged for a closer look

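Dixon's test for 1 extreme liver within a group marked 17 of 234 groups of values, tested over 39 members and 6 groups. Chance flags about 1 in 20 groups. SIRT1intKO 24 h replicate 5 had the highest value of its group in 6 of them: Hgd 411, Kynu 110.2, Haao 196, Cbs 618, Mccc1 31.1 and Prodh2 124 CPM. WT 0 h replicate 2 was lowest for Tdo2 (919) and Bhmt (3108) and highest for Sdsl (48.0). SIRT1intKO 6 h replicate 1 was highest for Bckdhb (76.4) and Uroc1 (277). Haao was lowest in WT 6 h replicate 4 (202) and in SIRT1intKO 6 h replicate 2 (169.8), and Gnmt in SIRT1intKO 0 h replicate 5 (734). Bhmt was lowest in WT 24 h replicate 2 (71.7), Bhmt2 in WT 6 h replicate 1 (73.8), and Bckdhb was highest in WT 24 h replicate 1 (84.2). The cause was not tested.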

How the results depend on the processing

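Each 24 h result of WT rests on 4 livers that form 2 pairs, and surgery and library series cannot be told apart against 0 h. By adjusted p alone the members lower were 14 at 6 h in WT and 14 in SIRT1intKO, and 18 and 28 at 24 h. From 6 h to 24 h 8 were lower in WT and 25 in SIRT1intKO, and between genotypes at 24 h 10 were. Those higher were 7 at 6 h in WT and 7 in SIRT1intKO, and 2 and 2 at 24 h. From 6 h to 24 h 0 were higher in WT and 3 in SIRT1intKO, and between genotypes at 24 h 1 was.

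With only the groups compared, 14 of the 20 members past the threshold at 24 h against 0 h in WT stayed past it, and 29 of 30 in SIRT1intKO. The number called lower in WT was then 4, beside 6 in the main fit. From 6 h to 24 h, 5 of 8 members stayed past the threshold in WT and 22 of 28 in SIRT1intKO. Between genotypes at 24 h, 0 members were called lower and 0 higher in such a fit. With a replicate block, 1 was called lower there (66 of all genes) and 1 higher (102). Of the 11 members past the threshold 2 stayed past it, Gpt2 and Sds. The log2 fold changes with the block were -1.55 for Got1, -1.73 for Csad, -1.31 for Afmid and -0.71 for Mat1a, beside -1.60, -1.91, -1.53 and -0.92 without it. At 24 h against 0 h, 9 were called lower in WT with the block (1072 of all genes), where the main fit gave 6. In SIRT1intKO 1 was called higher there (1667 of all genes). Replicate numbers did not pair livers: 6 of 76 pairs with the same number had r over 0.1, the median r was -0.00364, and 2 libraries matched best with their own number.

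Without WT_24h replicates 1 and 2, 0 members were called lower and 1 higher at 24 h against 0 h in WT, 4 lower and 3 higher from 6 h to 24 h, 15 lower and 0 higher between genotypes at 24 h, and 10 lower in the interaction. Without WT_24h replicates 3 and 4 the numbers were 25 lower at 24 h against 0 h, 20 lower from 6 h to 24 h, 3 higher between genotypes and 1 higher in the interaction.

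Among members past the threshold in either fit, directions turned without WT_24h replicates 3 and 4 for Acmsd at 24 h against 0 h in WT (log2 fold change -1.31), for Kynu (-1.32), Amt (-1.03) and Cbs (-1.09) from 6 h to 24 h in WT, and for Hpd (0.0895), Afmid (0.41), Amt (1.58) and Mccc1 (0.50) between genotypes at 24 h. The interaction of Amt at 24 h was 1.56. No other setting turned the direction of such a member. Counted without a threshold, the members below 0 between genotypes went from 32 to 14 without WT_24h replicates 3 and 4, and those from 6 h to 24 h in WT from 29 to 18 without WT_24h replicates 1 and 2.

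Leave-one-out fits gave 4 to 12 called lower and 1 to 2 higher in WT at 24 h against 0 h, 0 to 1 higher in SIRT1intKO, 4 to 8 lower and 0 to 1 higher from 6 h to 24 h in WT, and 0 to 2 higher in SIRT1intKO. Between genotypes at 24 h they gave 4 to 11 lower and 0 to 1 higher, and in the interaction at 24 h 0 to 1 lower and 0 to 1 higher. Of single members' results, 244 were weaker and 91 stronger over these fits. DESeq2 gave 0 weaker and 5 stronger, DESeq2 size factors 2 and 0, upper-quartile scaling 4 and 2, the looser filter 19 and 0, the stricter 2 and 3, only the groups compared 27 and 16, and the block 16 and 3. The cause was not tested.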
